A study of Homo sapiens with 6 samples.

Results

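The metallothioneins and their zinc-response partners were followed in NCI-N87 cells, an established human gastric carcinoma line, after depletion of SCAMP1, a membrane protein of vesicle trafficking. The genes were taken by name from the protein-coding entries of the deposited expression table: MT1A, MT1E, MT1F, MT1G, MT1M, MT1X, MT2A, MTF1 and SLC30A1, which make 9 of 58735 genes in the table and of 19951 protein-coding ones. The cells carried the lentiviral vector pSIH-H1-puro, either empty (labelled shNC, the study's shCtrl) or with 1 shRNA against SCAMP1 (labelled shScamp1, the study's shS1#1), and 3 RNA samples of each were sequenced. Both groups were exposed to virus and polybrene for 24 h, were kept as stable populations under puromycin (2 μg/ml) in medium with serum, and were lysed near 80% confluence, with no added metal named in the labels. The second shRNA of the study was not analysed here, so effects of SCAMP1 loss and of this shRNA cannot be told apart. The labels call the samples biological replicates, yet the study leaves RNA-seq out of its independently repeated assays, and p-values therefore measure the spread between these samples, which may be technical.

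Metallothioneins are very small, cysteine-rich proteins that bind zinc and copper through clusters of thiolate groups and buffer the metals inside the cell. MTF1 is the zinc-sensing transcription factor that enters the nucleus when free zinc is high, binds metal response elements in the promoters of its target genes and switches on the metallothioneins together with SLC30A1 (also called ZnT1), the exporter that carries zinc out through the plasma membrane. In epithelia of the stomach and gut this system is known to follow the metal supply, and metallothionein genes are also known targets of glucocorticoids and of oxidative stress.

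The 7 metallothioneins among the members lie together on chromosome 16. Their coding sequences are shown for the 4 genes with reads, because the near identity of these genes bears on how reads can be assigned to them. The sequences come from the GENCODE 29 transcripts of GRCh38 (the hg38 build), and capitals mark the codons TGC and TGT, both of which encode cysteine.
MT2A: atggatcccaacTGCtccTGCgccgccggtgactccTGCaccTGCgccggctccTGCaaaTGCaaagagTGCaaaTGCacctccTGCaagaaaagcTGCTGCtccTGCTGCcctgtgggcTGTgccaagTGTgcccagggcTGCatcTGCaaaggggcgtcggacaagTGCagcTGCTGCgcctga
MT1E: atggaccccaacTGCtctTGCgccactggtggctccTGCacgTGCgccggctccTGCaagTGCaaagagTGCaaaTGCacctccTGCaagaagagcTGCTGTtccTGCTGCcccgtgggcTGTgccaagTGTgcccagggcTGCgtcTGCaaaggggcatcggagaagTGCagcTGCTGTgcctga
MT1X: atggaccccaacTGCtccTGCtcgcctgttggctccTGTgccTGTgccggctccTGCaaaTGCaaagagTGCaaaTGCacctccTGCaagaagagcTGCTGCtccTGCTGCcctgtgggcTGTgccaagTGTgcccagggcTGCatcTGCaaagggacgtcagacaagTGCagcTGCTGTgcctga
MT1F: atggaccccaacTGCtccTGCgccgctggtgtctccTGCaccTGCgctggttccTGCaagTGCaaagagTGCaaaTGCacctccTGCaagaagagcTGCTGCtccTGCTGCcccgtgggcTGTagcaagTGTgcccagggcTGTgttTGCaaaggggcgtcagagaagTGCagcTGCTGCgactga
Each of the 7 coding sequences has 186 bases, spread over 3 exons, and 20 of its 61 codons before the stop (32.8%) encode cysteine. Between pairs of the 4 genes shown, 88.7% to 92.5% of the bases were identical, with the lowest value for MT1F and MT1X. Among all 7 genes the highest identity was 95.2%, between MT1G and MT2A. Long identical stretches were counted over the whole principal transcript of each gene, coding bases included. Of stretches of 50 bases, 3.59% (MT1F) to 20.2% (MT1G) were also present in a transcript of another family gene. Of stretches of 100 bases none was (0%). The read length was not given in the sources used here, so how many reads of these genes were split between copies or lost in counting is not known, for the single genes as for their sum.

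The promoters are shown because MTF1 acts through short elements in them. RefSeq entries were at hand for 4 of the 9 members (MT1X, MT2A, MTF1 and SLC30A1), and none for MT1A, MT1E, MT1F, MT1G and MT1M. Each window holds the 250 bases before the RefSeq start on the coding strand of GRCh38.p14, and capitals mark the letters TGCACNC or TGCGCNC, the core of the metal response element, or their reverse complements.
MT2A promoter, chr16:56608334-56608583, forward strand: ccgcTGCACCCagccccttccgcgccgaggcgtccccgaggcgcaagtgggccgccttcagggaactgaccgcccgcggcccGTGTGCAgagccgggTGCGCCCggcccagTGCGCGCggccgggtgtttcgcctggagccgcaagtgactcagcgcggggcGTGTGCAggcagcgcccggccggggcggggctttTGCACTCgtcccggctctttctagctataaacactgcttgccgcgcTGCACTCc
MT1X promoter, chr16:56682220-56682469, forward strand: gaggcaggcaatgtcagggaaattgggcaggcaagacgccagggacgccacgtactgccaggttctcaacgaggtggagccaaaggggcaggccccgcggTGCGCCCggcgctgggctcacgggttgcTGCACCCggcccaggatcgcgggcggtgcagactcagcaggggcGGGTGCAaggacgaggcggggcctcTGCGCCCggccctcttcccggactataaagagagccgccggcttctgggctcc
SLC30A1 promoter, chr1:211579162-211579411, reverse strand: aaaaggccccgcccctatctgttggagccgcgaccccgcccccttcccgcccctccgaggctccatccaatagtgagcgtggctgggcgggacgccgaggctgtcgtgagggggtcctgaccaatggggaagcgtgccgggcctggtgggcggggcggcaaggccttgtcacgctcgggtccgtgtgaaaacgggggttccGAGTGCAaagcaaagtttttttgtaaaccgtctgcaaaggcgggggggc
The MT2A window held 7 matches, 5 on the forward and 2 on the reverse strand, at 8 to 246 bases from the start. In the MT1X window there were 4 matches, at 53 to 150 bases from the start, and in the SLC30A1 window 1 match, at 49 bases. The SLC30A1 window lies wholly upstream of the GENCODE start of this gene (chr1:211578742, reverse strand). The sequence just before that GENCODE start was not searched, so the count of 1 match does not cover it. The MTF1 window (chr1:37859593-37859842, reverse strand) had 0 matches to these letters. At least 1 match was found in 24.8% of the 35116 promoters in the RefSeq table, at least 4 in 0.370% and at least 7 in 0.0313%, so a single match is common and the numbers in MT2A and MT1X are not. These matches describe letters in the sequence and do not show binding.

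The authors deposited FPKM (fragments of a gene per length and library size, scaled between libraries), from which whole reads could be recovered for 100% of values. Depth was 15064905 to 15988700 reads per library in shNC and 14311769 to 14667628 in shScamp1. SCAMP1 was at 12.6, 12.1 and 11.5 FPKM in the shNC libraries and at 1.70, 1.37 and 1.99 FPKM in the shScamp1 libraries (log2 fold change −2.78, SE 0.14, limma adjusted p = 0.000248), lower in each shScamp1 library than in any shNC library. The epithelial markers EPCAM, CDH1, KRT8, KRT18, KRT19, CEACAM5 and ERBB2 summed to 5430 to 5711 FPKM in shNC and 9071 to 10024 FPKM in shScamp1. Of these 7 markers 5 were called higher, beside 8.82% of all genes tested. Markers of blood, endothelial and fibroblast cells summed to 0.714 to 0.971 FPKM in shNC and 1.07 to 1.2 FPKM in shScamp1, and 2 of the 9 (COL1A2 and DCN) were at 0 reads in each library. shScamp1 replicate 2 stood apart. Mitochondrial transcripts took 9.21% of its reads, against 6.09% to 6.78% in the other 5 libraries. Ribosomal protein genes took 3.57% of its reads, against 5.42% and 5.01% in shScamp1 replicates 1 and 3. In shNC their share was 6.76% to 6.84%, so all shScamp1 libraries were below all shNC libraries. The fold changes of the members are given with and without shScamp1 replicate 2.

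MT2A, the most widely expressed metallothionein, gave most of the family's signal. It was measured at 22.3, 24.5 and 23.4 FPKM in the shNC libraries and at 11.7, 5.17 and 13.3 FPKM in the shScamp1 libraries. Every shScamp1 library was thus below every shNC library, by a ratio to the shNC mean of 0.50, 0.221 and 0.567, with the lowest value in replicate 2. The mean was 23.4 ± 1.10 FPKM in shNC and 10.0 ± 4.29 FPKM in shScamp1 (SD, n = 3), which is lower by 57.0%. On the log2(FPKM + 0.1) scale the fold change was −1.32 (SE 0.34) and its limma adjusted p of 0.0512 just missed the threshold of 0.05. Without shScamp1 replicate 2 the fold change was −0.90 (SE 0.07) and MT2A was called lower, with a limma adjusted p of 0.000887. The values rest on 459, 530 and 469 reads in shNC and on 222, 92 and 252 reads in shScamp1. In the fit with all 6 libraries, 207 of the 15556 genes tested (1.33%) had a lower log2 fold change than MT2A. In such bulk samples, fewer cells expressing a gene and less RNA per cell cannot be told apart.

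MT1E, a second zinc- and copper-binding isoform, was at 3.00, 3.48 and 3.81 FPKM in shNC and at 2.47, 0.972 and 2.47 FPKM in shScamp1. The groups did not overlap, and replicates 1 and 3 of shScamp1 were nearly equal, at a ratio of 0.721 and 0.720 to the shNC mean. The log2 fold change was −0.87 (SE 0.35, limma adjusted p = 0.154), and without shScamp1 replicate 2 it was −0.45 (SE 0.11, limma adjusted p = 0.0366), a call that voom on recovered reads without this library did not make (adjusted p = 0.129). Counts were 50, 61 and 62 reads in shNC against 38, 14 and 38 reads in shScamp1.

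MT1X, the gene at the far end of the cluster, varied most among the shScamp1 libraries on the log2 scale. It was at 2.38, 1.90 and 2.70 FPKM in shNC and at 2.28, 0.371 and 1.46 FPKM in shScamp1. The first shScamp1 library lay within the shNC range, while the second, with 9 reads, was far below all others. The log2 fold change of −0.995 (SE 0.58) had a limma adjusted p of 0.292 and shrank to −0.32 (SE 0.23, adjusted p = 0.359) without replicate 2. This 1 library therefore set most of the value for MT1X.

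MT1F, the least expressed of the 4, was at 0.835, 1.18 and 0.994 FPKM in shNC and at 0.797, 0.387 and 0.687 FPKM in shScamp1. The groups did not overlap, but shNC replicate 1 and shScamp1 replicate 1 were separated by only 25 against 22 reads. The log2 fold change was −0.64 (SE 0.29, limma adjusted p = 0.198), and −0.38 (SE 0.21, adjusted p = 0.247) without shScamp1 replicate 2.

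MT1A, MT1G and MT1M, which are metallothioneins of more restricted expression, had 0 reads in all 6 libraries. A count of 0 allows up to 3 reads, which correspond to 0.455 to 0.553 FPKM for MT1A, 0.240 to 0.292 FPKM for MT1G and 0.191 to 0.233 FPKM for MT1M. Expression under these limits was not detectable at this depth, and no comparison between the groups was made for the 3 genes.

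MTF1, the zinc-sensing factor itself, was at 6.89, 6.58 and 6.32 FPKM in shNC and at 6.64, 9.88 and 7.41 FPKM in shScamp1. shScamp1 replicate 1 lay within the shNC range and replicate 2 was the highest of the 6. The log2 fold change was 0.25 (SE 0.15, limma adjusted p = 0.304), and 0.09 (SE 0.07, adjusted p = 0.406) without that library. SLC30A1, the plasma membrane zinc exporter, was at 13.4, 13.9 and 14.0 FPKM in shNC and at 14.5, 18.3 and 16.02 FPKM in shScamp1. All shScamp1 libraries were above all shNC libraries, again with replicate 2 farthest out, although the gap between the nearest pair was small beside the range within shScamp1. The log2 fold change was 0.23 (SE 0.10, limma adjusted p = 0.158), and 0.15 (SE 0.06, adjusted p = 0.115) without replicate 2. MTF1 and SLC30A1 rested on 778 to 1085 and 1157 to 1369 reads per library, far more than any MT1 gene.

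**Figure D1:**
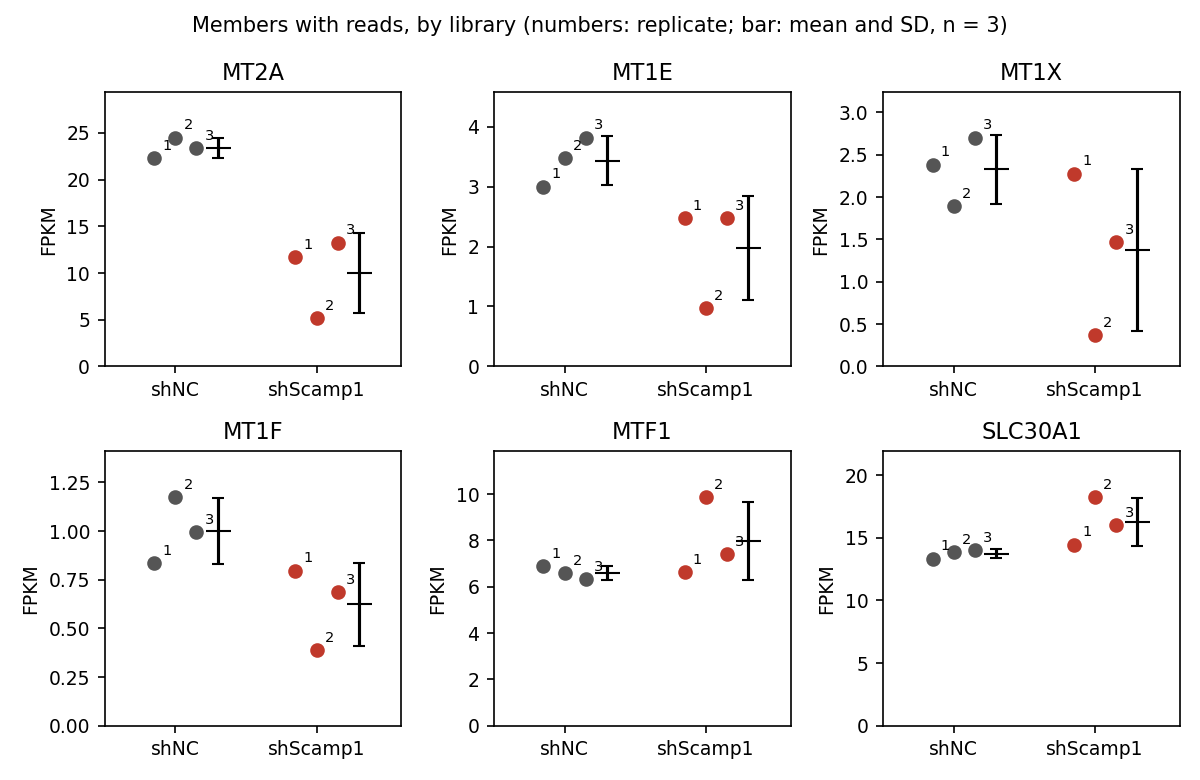
FPKM (y axis, a separate linear scale from 0 in each panel) of the 6 members with reads in shNC (grey) and shScamp1 (red), with 1 point per library numbered by replicate and a bar for the mean and SD (n = 3). shScamp1 replicate 2 is the lowest point for MT2A, MT1E, MT1X and MT1F and the highest for MTF1 and SLC30A1.

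Of the 9 members, 6 reached the mean of 0.5 FPKM needed for the test and 0 were called by limma at an adjusted p under 0.05, where the background over all genes tested was 14% (8.82% higher and 5.17% lower). With the added demand of an absolute log2 fold change above 1, the members again gave 0 calls against a background of 3.16%. At an unadjusted limma p under 0.05 there were 3 of 6 (MT2A, MT1E and SLC30A1), against 30.7% of all genes tested. voom on recovered reads called 1 member, MT2A (adjusted p = 0.0142), beside 17.7% of all genes tested. The groups did not overlap for 4 of the 6 members (MT2A, MT1E and MT1F lower, SLC30A1 higher), beside 41.4% of all genes, and an exact two-sided permutation test of 3 against 3 libraries cannot give a p below 0.1. Without shScamp1 replicate 2, limma called 2 members, both lower, while 13.2% of all genes tested were then called lower and 14.7% higher. The median log2 fold change of the 6 members was −0.76, beside −0.02 over all genes tested, and −0.35 beside −0.01 without shScamp1 replicate 2. In the fit with all 6 libraries, MT1X, MT1E and MT1F stood at 2.47%, 3.42% and 6.74% from the low end of the log2 fold changes. In the same fit, 24.9% and 23.8% of genes lay above SLC30A1 and MTF1. This order of the MT1 genes depends on shScamp1 replicate 2, without which the log2 fold changes were −0.32 for MT1X, −0.45 for MT1E and −0.38 for MT1F.

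The 4 expressed metallothioneins were also added up, as a measure of the transcripts of this buffer as a whole. The sum was 28.5, 31.0 and 30.9 FPKM in shNC and 17.2, 6.90 and 17.9 FPKM in shScamp1. No shScamp1 library reached the level of any shNC library, and the means were 30.1 ± 1.42 FPKM and 14.0 ± 6.16 FPKM (SD, n = 3), a ratio of 0.465, or 0.583 without shScamp1 replicate 2. In recovered reads the family had 601, 684 and 634 in shNC and 341, 125 and 347 in shScamp1. The sum is dominated by MT2A and is no independent observation beside that gene.

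**Figure D2:**
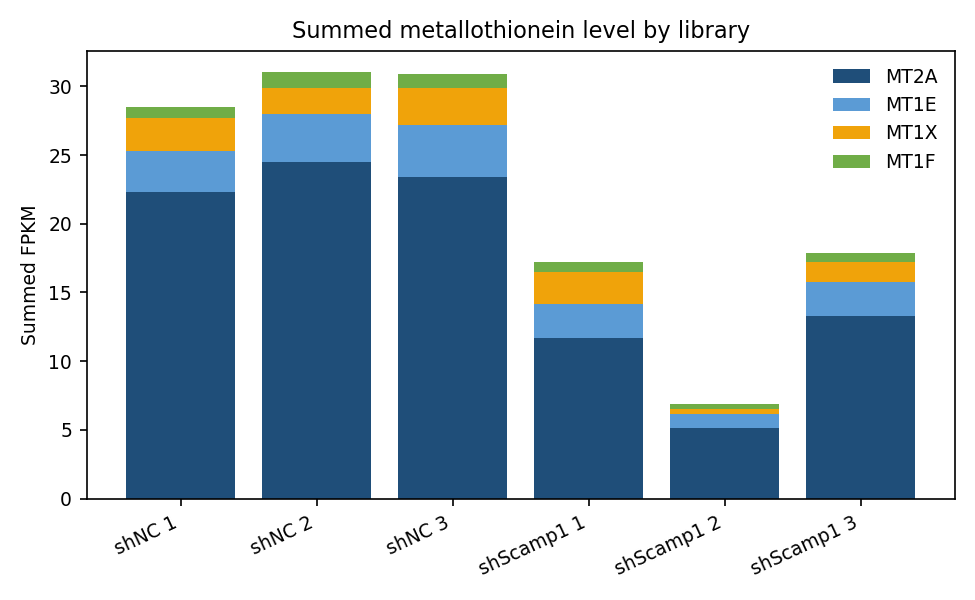
Summed FPKM of MT2A, MT1E, MT1X and MT1F (stacked bars, linear axis from 0) in each of the 6 libraries. The 3 shNC libraries reach 28.5 to 31.0 FPKM and the shScamp1 libraries 6.90 to 17.9 FPKM, with the lowest bar in shScamp1 replicate 2.

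The make-up of the sum shifted less than its size. MT2A contributed 78.2%, 78.9% and 75.7% of the summed FPKM in shNC and 67.8%, 74.9% and 74.2% in shScamp1, and MT1E contributed 10.5%, 11.2% and 12.4% against 14.3%, 14.1% and 13.8%. MT2A exceeded MT1E by a factor of 7.43, 7.04 and 6.13 in the shNC libraries and of 4.73, 5.32 and 5.37 in the shScamp1 libraries. This ratio did not overlap between the groups, including replicate 2 with its 14 reads of MT1E. The ratio of MT2A to MT1X did overlap (8.65 to 12.9 against 5.14 to 14.0). Lack of overlap is frequent here, at 41.4% of all genes tested singly. No test was made on these ratios.

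Levels can be compared between the members only per length, and the deposited lengths cover all annotated exons of a gene. For MT1X the deposited length of 1773 bases was 3.94 times its principal mRNA of 450 bases, and for MT1F the lengths were 1889 and 690 bases. Over the length of the principal mRNA, the shNC means were 38.6 FPKM for MT2A, 9.17 for MT1X, 5.13 for MT1E and 2.74 for MT1F. The shScamp1 means on this scale were 16.6, 5.40, 2.95 and 1.71 FPKM in the same order. MT1X was thus above MT1E per mRNA length and below it as deposited, while MT2A was first and MT1F last on both scales. The order of MT1X and MT1E within shScamp1 did not exceed the spread over libraries (SD 3.77 and 1.29 FPKM). Fold changes as reported were computed from the deposited lengths only.

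The cluster on chromosome 16 spans 119 kb, from 56565049 to 56684196, and holds 16 metallothionein genes and pseudogenes, of which 8 had any read. MT2A (56608199 to 56609497) had 2024 reads over the 6 libraries, MT1X (56682424 to 56684196) 303, MT1E (56625475 to 56627112) 263 and MT1F (56657694 to 56660698) 142. The neighbours in between were nearly silent. MT1DP had 3 reads, MT1JP 2, and MT1L and MT1B 1 each, so expressed and silent genes alternated along the cluster. MT1G, the only gene of the cluster on the reverse strand, had none, nor did MT3, the metallothionein best known from brain, nor MT4, known from stratified epithelia. A promoter with many matches also occurred without reads, as the MT1H window of the same length held 8 matches and MT1H had 0 reads.

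**Figure D3:**
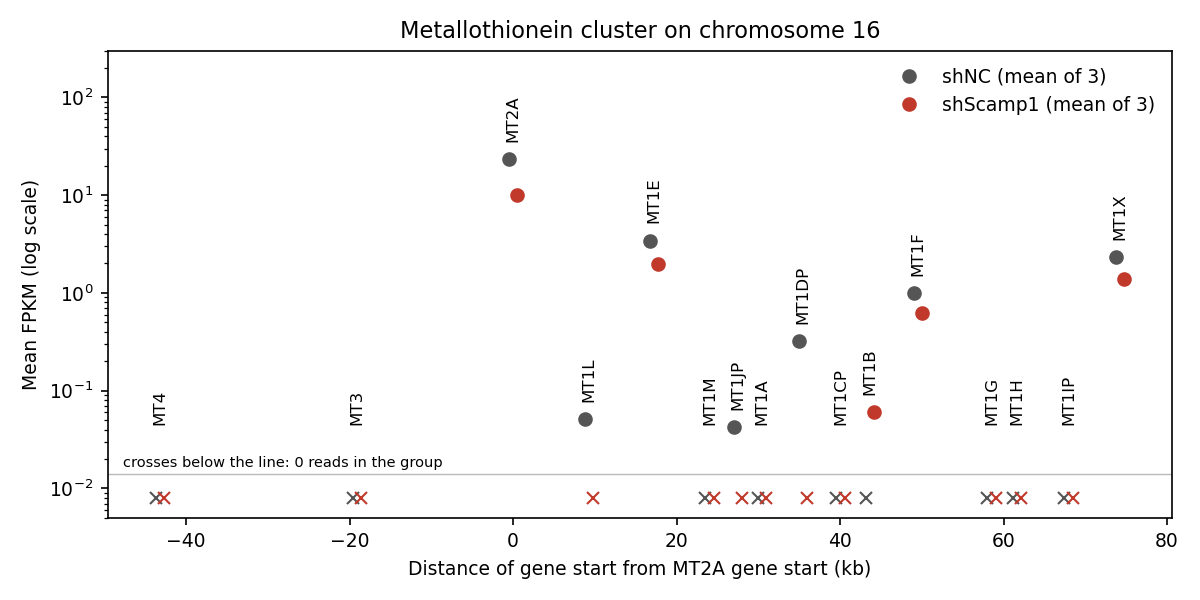
Mean FPKM per group (y axis, log scale) of the 16 metallothionein genes and pseudogenes of chromosome 16 against the distance of each gene start from that of MT2A in kb, with shNC in grey and shScamp1 in red. Crosses under the line mark 0 reads in a group, and MT2A, MT1E, MT1X and MT1F are the only genes above 0.5 FPKM in either group.

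Pseudogenes elsewhere took few reads. MT1P1 on chromosome 9, with 1 to 4 reads per library, was the only metallothionein outside the members that reached the test (log2 fold change 0.31, SE 0.58, limma adjusted p = 0.749). MT1XP1 and MT1P3 had at most 2 reads per library and MT2P1 at most 1. All other family copies together had 2 to 9 reads per library, against 125 to 684 for the members, and their mean was 6 reads in shNC and 5 in shScamp1.

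The protein-coding genes within 500 kb of the cluster were mixed in direction. Of 12 such neighbours 9 were tested, of which 2 were called higher and 1 lower by limma. Over all genes tested, 8.82% were called higher and 5.17% lower. The median log2 fold change of the 9 neighbours was −0.02. NLRC5, a regulator of MHC class I genes, was called higher (log2 fold change 0.85, limma adjusted p = 0.00145), as was HERPUD1, a component of endoplasmic reticulum quality control (0.78, adjusted p = 0.0115), a call lost when any 1 shNC library was left out (adjusted p from 0.0559 to 0.0591). OGFOD1, a ribosomal protein hydroxylase, was called lower (−0.27, adjusted p = 0.0489), a call that held in 9 of 17 alternatives.

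shScamp1 replicate 2 differed from the others in more than the metallothioneins. For 301 other protein-coding genes with a principal mRNA of at most 800 bases, which covers the mRNA length of the 4 expressed metallothioneins, the median log2 difference from the shNC mean was 0.02, −0.62 and −0.11 in shScamp1 replicates 1, 2 and 3, and between −0.01 and 0.04 in the shNC libraries. For 11212 longer mRNAs it was between −0.01 and 0.01 in all 6 libraries. Short mRNAs as a class were therefore low in replicate 2 and, to a lesser extent, in replicate 3. MT2A differed from the shNC mean by −0.99, −2.15 and −0.81 on the log2 scale in the 3 shScamp1 libraries, and relative to the median of the short mRNAs of the same library by −1.02, −1.53 and −0.71. In replicate 1, where the short mRNAs were not low, 6 of the 301 lay below MT2A, and 2 and 14 did in replicates 2 and 3. MT1E lay above 23, 10 and 37 of the short mRNAs, MT1X above 137, 1 and 18, and MT1F above 39, 62 and 33. What part the mRNA length or the state of the RNA had in the values of replicates 2 and 3 was not tested.

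**Figure D4:**
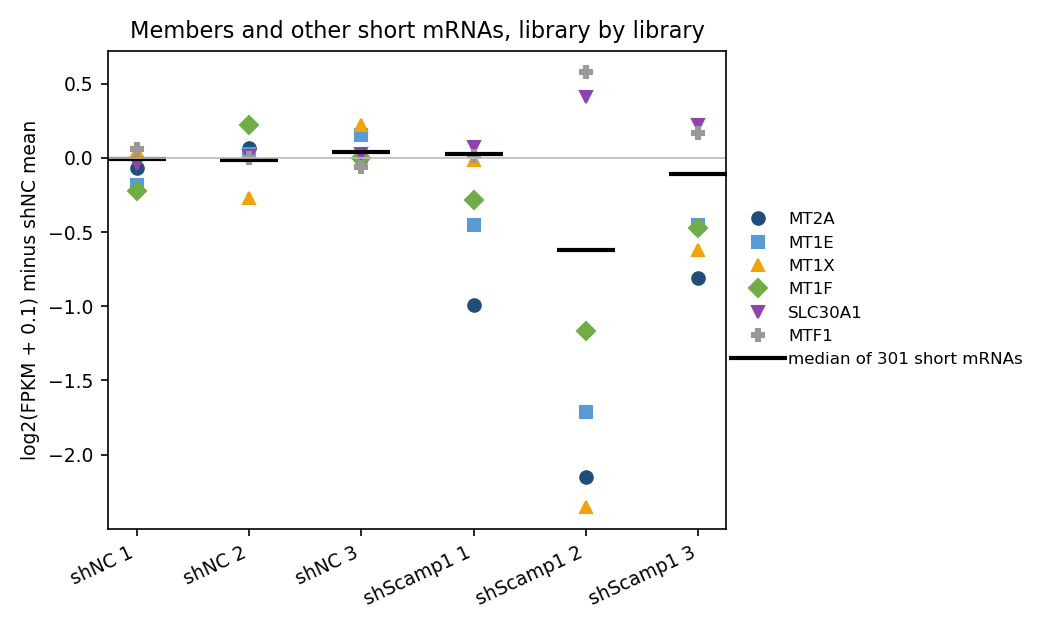
Difference of log2(FPKM + 0.1) from the shNC mean (y axis) for the 6 members with reads in each library, with a black bar for the median of 301 other protein-coding genes with an mRNA of at most 800 bases. In shScamp1 replicate 2 the bar falls to −0.62 and the metallothioneins lie below it, and in shScamp1 replicate 1 the bar is at 0.02 and MT2A at −0.99.

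The genes whose pattern over the 6 libraries came closest to that of the metallothioneins were sought next. The measure was the root-mean-square difference between the centred log2 values of a gene and the mean centred profile of MT2A, MT1E, MT1X and MT1F, over 6 libraries. It was computed for 6574 protein-coding genes whose mean reached 5 FPKM, and its median was 0.649. RPS28, a ribosomal protein gene, was nearest at 0.0689, followed by TOMM7, a subunit of the mitochondrial import receptor (0.0824), NDUFA1, a subunit of complex I (0.0854), DPM3, a subunit of dolichol-phosphate-mannose synthase (0.0962), and PAXX, a DNA repair factor (0.116). Their longest principal mRNAs have 1326, 778, 766, 486 and 812 bases in this order. The longest principal mRNA also decided which genes were among the 301 short ones, so RPS28 and PAXX were not. Shorter transcripts of these genes were not considered. RPS28 was at 199.2, 187.1 and 201.4 FPKM in shNC and at 148.5, 55.6 and 133.9 FPKM in shScamp1. All 5 had their lowest value in shScamp1 replicate 2 and none was called (limma adjusted p from 0.146 to 0.204). Without that library all 5 were called lower, at smaller log2 fold changes. RPS28 went from −0.92 to −0.47 (limma adjusted p = 0.00394) and DPM3, the last to pass, from −0.80 to −0.35 (0.0374).

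Other proteins that move zinc were compared next. The SLC30 family carries zinc out of the cytosol, to the outside or into organelles. Of the 9 SLC30 genes other than SLC30A1, 5 were tested and 0 were called higher or lower by limma, beside 14% of all genes tested. At an unadjusted limma p under 0.05 there was 1 of the 5, beside 30.7% of all genes tested. Their median log2 fold change was 0.22, or 0.02 without shScamp1 replicate 2. SLC30A5, which loads zinc into the secretory pathway, had the highest level, with means of 9.76 ± 0.33 FPKM in shNC and 8.49 ± 0.19 FPKM in shScamp1 (SD, n = 3). Its groups did not overlap (log2 fold change −0.20, SE 0.06, limma adjusted p = 0.0870), as for 41.4% of all genes tested. Without shScamp1 replicate 2 SLC30A5 was called lower (−0.18, limma adjusted p = 0.0427), as were 13.2% of all genes tested.

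The SLC39 family carries zinc into the cytosol. Among its 14 genes 11 were tested, 1 was called higher and 0 lower (9.09%, beside 14% of all genes tested), and the median log2 fold change was −0.07. SLC39A4 (ZIP4), the zinc importer of the intestinal epithelium, was at 19.3, 20.1 and 21.5 FPKM in shNC and at 34.8, 32.4 and 35.9 FPKM in shScamp1. All 3 shScamp1 libraries, replicate 2 included, lay far above the shNC range, at a log2 fold change of 0.76 (SE 0.07, limma adjusted p = 0.00192) that stayed called in 17 of 17 alternatives, from 0.72 to 0.80. SLC39A7, which releases zinc from the endoplasmic reticulum, had the highest mean of the family over the 6 libraries. Its means were 35.1 ± 1.55 FPKM in shNC and 31.4 ± 5.48 FPKM in shScamp1, where SLC39A4 was higher (34.4 FPKM). The log2 fold change of SLC39A7 was −0.17 (limma adjusted p = 0.429), or −0.02 (0.778) without shScamp1 replicate 2. Without shScamp1 replicate 2 the SLC39 calls were 2 higher and 2 lower (18.2% each), beside 14.7% and 13.2% of all genes tested.

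**Figure D5:**
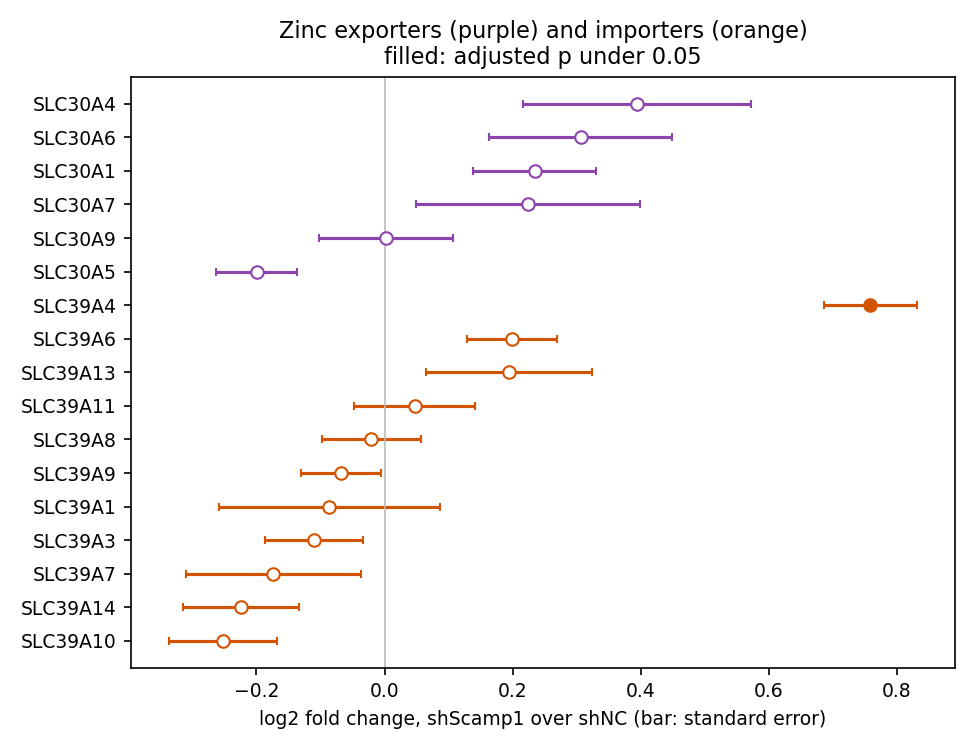
Log2 fold change, shScamp1 over shNC, with its standard error (limma, n = 3 libraries per group) for the 6 tested SLC30 exporters in purple and the 11 tested SLC39 importers in orange. SLC39A4, at 0.76, is the only filled point, that is, with an adjusted p under 0.05.

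Genes of copper and iron handling were called at shares of 10% and 20%, near the 14% of all genes tested. In the copper list, 10 of 12 genes were tested, 1 was called higher and 0 lower, with a median log2 fold change of −0.04. The call was SLC31A1, the copper importer CTR1 (log2 fold change 0.30, SE 0.06, limma adjusted p = 0.0275), which held in 10 of 17 alternatives. In the iron list, 10 of 11 genes were tested, 2 were called higher and 0 lower, with a median of 0.11. FTH1, the ferritin heavy chain, had a mean of 536.5 FPKM in shNC and 811.7 FPKM in shScamp1 (log2 fold change 0.60, adjusted p = 0.00612), called in 14 of 17 alternatives. SLC11A2, the iron transporter DMT1, had a log2 fold change of 0.34 (adjusted p = 0.0274), called in 11 of 17 alternatives. Without shScamp1 replicate 2 the copper list gave 3 higher and 1 lower with a median that turned to 0.19, and the iron list 2 higher and 3 lower with a median of 0.06. Over all genes tested, 14.7% were then called higher and 13.2% lower.

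Stress genes that metals can also induce were mostly higher in shScamp1. The list held 10 genes, all tested, of which 7 were called higher (70%) and 0 lower, with a median log2 fold change of 0.53. Over all genes tested, 8.82% were called higher and 5.17% lower. This list, like the others, was chosen with earlier results of these data known. GCLM (0.23), NQO1 (0.25) and SRXN1 (−0.22) were not called. TXNRD1, a thioredoxin reductase, had a log2 fold change of 0.89 (SE 0.06, limma adjusted p = 0.000601). HMOX1, the haem oxygenase that is also induced by cadmium and arsenite, was at means of 13.5 ± 0.48 FPKM in shNC and 27.3 ± 2.57 FPKM in shScamp1 (log2 fold change 1.00, adjusted p = 0.00132). SLC7A11, the cystine importer that feeds glutathione synthesis, had a log2 fold change of 1.24 (adjusted p = 0.00540), and DNAJB1, a heat shock protein of the HSP40 family, of 0.62 (adjusted p = 0.00240). Without shScamp1 replicate 2 the list gave 9 higher and 0 lower, beside 14.7% and 13.2% of all genes tested.

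Among genes of the glucocorticoid response, which also includes MT2A in many cell types, most of those tested were called higher. Of 10 genes 8 were tested, 5 were called higher (62.5%) and 0 lower, with a median log2 fold change of 0.44. Over all genes tested, 8.82% were called higher and 5.17% lower. FKBP5 went the other way without overlap of the groups (log2 fold change −0.31, SE 0.12, limma adjusted p = 0.147). KLF9 (0.26) and NR3C1 (0.05) were not called either. TSC22D3 (GILZ) had a log2 fold change of 1.27 (SE 0.12, limma adjusted p = 0.00169), and ERRFI1, a feedback inhibitor of EGF receptor signalling, of 0.92 (adjusted p = 0.00295). DUSP1, a MAP kinase phosphatase, had a value of 0.62 (adjusted p = 0.0210), called in 14 of 17 alternatives, and PER1, a clock gene, of 0.40 (adjusted p = 0.0362), called in 10 of 17. Without shScamp1 replicate 2 the list gave 5 higher and 1 lower, beside 14.7% and 13.2% of all genes tested. The epithelial keratins were also higher in shScamp1, and their part in the results was not tested.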

How the data were processed

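RNA-seq of 3 shNC and 3 shScamp1 samples of NCI-N87 cells was analysed. The submitters' processing notes name HISAT2 2.0.5, featureCounts 1.5.0-p3, DESeq2 1.20.0 and hg38, with no role for each. The authors deposited FPKM per gene and library, scaled between libraries, and the gene coordinates of all 58735 entries equalled GENCODE 29. No column of sample values was left unused. FPKM multiplied by gene length was a whole multiple of 1 step per library for 100% of values above 0 (tolerance 0.01), which gave the reads. Totals of 14311769 to 15988700 reads leave genes with few reads, such as MT1F, imprecise. A limit from a count of 0 covers counting error only.

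The groups were compared with limma 3.58.1 under R 4.3.3 (lmFit, and eBayes with a trend) on log2(FPKM + 0.1), a scale that understates changes of low genes. Genes needed a mean of at least 0.5 FPKM, p-values were two-sided, and Benjamini-Hochberg adjustment covered 15556 genes. The study's methods give a fold and p limit but name no test. In simulated reads for this comparison over 15556 genes, 157 of 200 genes given a log2 change of 1.5 came out as called (78.5%), beside 9 unchanged genes. The simulated spread between samples was fixed for all genes, with no library like shScamp1 replicate 2. The share recovered therefore does not measure the power for the members. Tables, sequences and plots were made in Python 3.11.15 with pandas 2.3.3, numpy 2.4.6 and matplotlib 3.10.9. Promoters came from RefSeq (GRCh38.p14).

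The members and the gene lists were chosen with earlier results of these data known. The genes named are SCAMP1, the 9 members, other metallothionein copies with a read, up to 4 called genes per list by smallest p, the SLC30 and SLC39 gene with the highest mean, called neighbours within 500 kb, and the 5 genes with the nearest profile. MT1H, MT3, MT4, the cell markers, and FKBP5, KLF9, NR3C1, GCLM, NQO1 and SRXN1 were named in addition. SCO2, in the copper list, has 2 entries, of which the higher was used. Other settings tried were the filter, pseudocount, scaling and trend, voom, biotypes, the replicate number as a block and each library left out. voom without shScamp1 replicate 2 and the use of the principal mRNA length were chosen after seeing the data.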

Additional observations from a re-analysis of the deposited data

How the results depend on the processing

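The metallothioneins MT2A, MT1E, MT1X and MT1F stayed lower, and MTF1 and SLC30A1 higher, in each of the 17 alternatives in which they were tested. MT2A was called in 7 of the 17 (adjusted p from 6.87e-08 to 0.160) and MT1E in 1 (0.0366 to 0.342). No other member was called in any of them. Against 0 members called by limma, 1 was called, MT2A, with a pseudocount of 1, with a mean of at least 1 FPKM, with quantile normalization, with voom on recovered reads, with voom and no shScamp1 replicate 2, and with protein-coding genes only. In these settings 14.2% to 36.2% of all genes tested were called. Leaving out each library in turn gave 0 to 2 members called, while 5.19% to 27.8% of all genes tested were called. Members with an unadjusted limma p under 0.05 were then 1 to 6, and without a variance trend 1 in place of 3. The share of all genes at that limit is given only for the unaltered fit (30.7%), so these counts have no background beside them. Over all genes tested, 2177 were called, 808 to 4330 with a library left out, with the highest count without shScamp1 replicate 2, and 5625 with voom and without that library. With the fold rule added the 492 genes became 248 at a pseudocount of 1. The log2 fold change of MT1P1 ranged from −0.11 (without shNC replicate 1) to 0.81 (without shScamp1 replicate 2) and was −0.03 without shScamp1 replicate 3.

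Correlations between the deviations from the group means gave no sign of pairing by replicate number. They were −0.0351, 0.0325 and 0.0668 for equal numbers and −0.0841 to 0.0537 for unequal ones. With shScamp1 replicate 2 far from the others, such values cannot exclude a pairing. With the replicate number as a block, 958 genes were called in all, 0 members were called, and MT2A had an adjusted p of 0.0793. Depth limits MT1F, MT1E and MT1X, with 10 to 37, 14 to 62 and 9 to 74 reads per library. The cause of these changes was not tested.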
